A study of Mus musculus with 6 samples.

Results

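The genes described here make cholesterol or regulate its supply. They are 28 genes chosen by symbol, from cytosolic acetoacetyl-CoA thiolase (Acat2) through the mevalonate, isoprenoid, squalene and post-lanosterol steps to the regulators of the pathway, and they were read in mouse neural stem cells. A probe set annotated to exactly 1 gene was found for 25 of the 28, out of 18193 genes with such a probe set, and all 25 read log2 4 or more on all 6 arrays. Acat2, Pdss1 and Soat1 had no such probe set in the annotation used and were not analysed here. Where a gene had several probe sets, the one with the highest mean over the 6 arrays stands for it.

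The study compared Spot14 GFP positive with Spot14 GFP negative mouse neural stem cells, and its title sets them among adult neural stem cells and lipogenesis by fatty acid synthase. Spot14 is the protein of Thrsp, a gene known from lipogenic tissues, and GFP, green fluorescent protein, is its reporter. There were 3 arrays per group, called biological replicates by the labels. Strain, age, culture, the reporter's construction and the way cells were sorted are not given in the sources used here. Thrsp was bright in both groups, at 14.21 ± 0.10 in GFP positive and 13.56 ± 0.15 in GFP negative cells on the log2 scale (SD, n = 3 each).

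Cholesterol is built in the cytosol and endoplasmic reticulum. Acetyl-CoA is turned into mevalonate and then into isoprenoid diphosphates. These feed ubiquinone, dolichol and protein prenylation as well as squalene, which is closed into the first sterol, lanosterol, and trimmed to cholesterol. When membrane sterol is low, Scap carries the membrane-bound transcription factor encoded by Srebf2 to the Golgi, where it is cut and released to activate most genes of the pathway. Insig proteins hold Scap in the endoplasmic reticulum when sterol is plentiful. Neural cells rely largely on their own synthesis, since cholesterol of the blood hardly crosses into the brain.

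Most genes of the pathway had lower values in GFP positive cells. The log2 difference, taken as GFP positive minus GFP negative, was negative for 22 of the 25 measured genes, against 49.5% of the 10531 genes tested in the series. Its median was -0.51, or 1.42-fold lower, against 0.00 for all genes tested, and it ran from -1.31 for Fdps to 0.36 for Insig2. In 13 of the 25 genes the GFP positive mean was lower by log2 0.5 or more, where 11.5% of all genes tested were. After adjustment over all genes tested (limma, Benjamini-Hochberg, threshold 0.05), 4 of the 25 fell: Idi1, Fdft1, Hsd17b7 and Stard4. That rule called 2.11% of all genes tested lower, and 2.35% higher. None of the 25 rose. At an unadjusted limma p under 0.05, 11 of the 25 were lower (8.28% of all genes tested) and 0 higher (9.92%). The 3 arrays of GFP positive cells all lay below the 3 of GFP negative cells for 14 of the 25 genes (11.5% of all genes tested) and above them for 1, Insig2 (13.8%). For a single gene, an exact 2-sided permutation test of 3 arrays against 3 cannot go below 0.1, the value it gave for each of these 15 genes. In RNA of many cells, fewer cells of a type and less RNA per cell cannot be told apart.

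**Figure D1:**
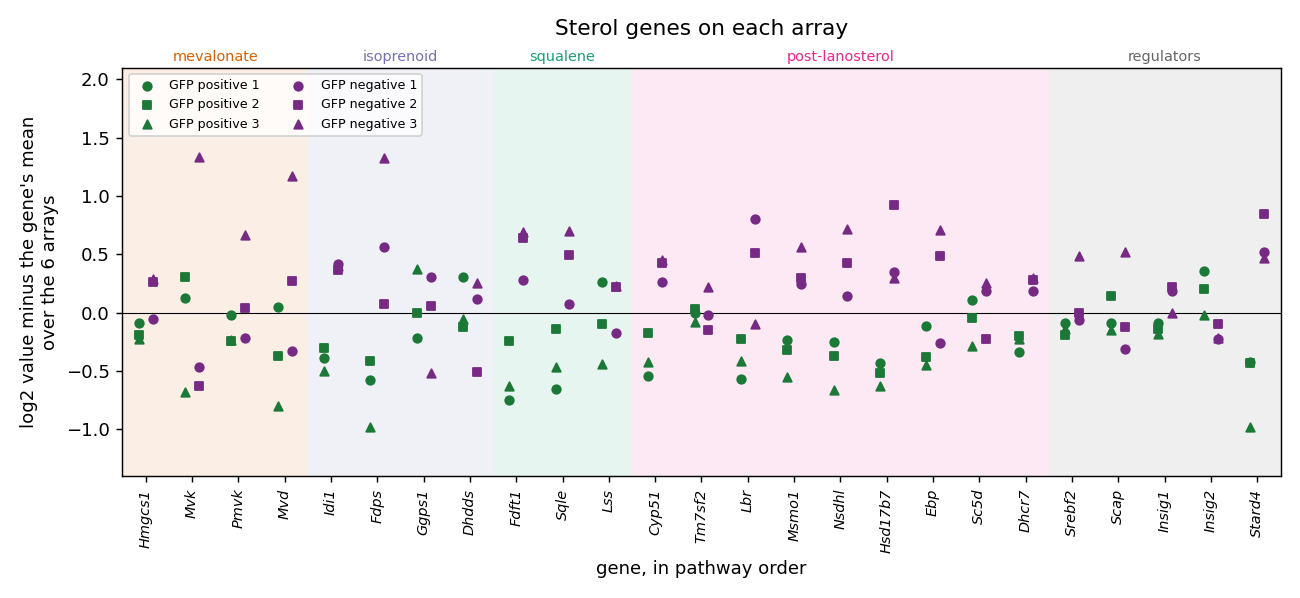
Log2 value of each measured gene on each array, minus the gene's own mean over the 6 arrays (vertical axis), with genes in pathway order (horizontal axis); green marks are GFP positive and purple marks GFP negative arrays, with 1 shape per replicate. The green marks of 14 genes, Fdft1 and Stard4 among them, lie wholly below the purple ones, and GFP negative replicate 3 is the highest mark in 16 genes.

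The arrays were not of equal standing. GFP negative replicate 3 was the highest of the 6 arrays for 16 of the 25 genes, and GFP positive replicate 3 was the lowest for 13. The same shares were not counted over all genes tested. There the array median was 9.09 on GFP negative replicate 3, the highest, 8.88 on GFP positive replicate 3, and 8.85 to 8.98 on the other arrays. These counts may therefore reflect the arrays and not the sterol genes, which was not tested. The array weights that limma estimates over all genes were 0.152 for GFP negative replicate 3 and 0.762 to 8.35 for the other arrays. The log2 excess of 3′ over 5′ control signal, a sign of RNA quality, was 2.33 (Gapdh) and 2.65 (actin) on GFP negative replicate 2, and 1.14 to 1.65 and 1.77 to 2.03 on the others. Beside a gene of the pathway, the value without GFP negative replicate 3 is given where leaving it out changed the call or the sign or moved the difference by over 1.5 times. Without it the median difference of the 25 genes was -0.34 and 20 were negative. The labelled cell type was checked on 15 neural stem cell markers. Of the 14 with a probe set 13 passed the filter, 2 of them rose in GFP positive cells (Gfap at 11.76 against 10.26, limma adjusted p = 0.0188; Nr2e1 at 11.45 against 10.59, limma adjusted p = 0.0308), and Sox2 and Nes read at least 11.22 on average in either group, with differences of 0.56 and -0.49 that did not pass. Of 10 microglia markers only Csf1r passed it, of 10 neuroblast and neuron markers 4 did, with Elavl4 lower (-1.59, limma adjusted p = 0.0474) and Dcx left at 2.43 and 2.42, near background. On the neuronal list Neurod1 and Map2 differed by -1.06 and -0.34 and Elavl3 by 0.49, and limma called none of these. Of 10 oligodendrocyte lineage and 8 ependymal markers 4 each passed the filter, and limma called 0 of them (2 and 0 lower, 0 and 1 higher at an unadjusted p under 0.05). Cspg4, which also marks mural cells, and Pdgfra were the 2 lower ones (-1.31 and -0.54), with groups that did not overlap. Olig1 and Olig2 were bright in both groups and differed by -0.11 and -0.20, and the ependymal Rarres2 and Dynlrb2 by -0.05 and 0.72. Of 10 endothelial and mural markers 2 passed it, Cspg4 and Acta2, which was lower but near background (means 3.96 against 5.24, limma adjusted p = 0.0413).

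Cell division markers moved with the comparison. Of 19 measured mitosis genes, 18 fell (median difference -1.76), with -2.68 for Ttk and -2.55 for Cenpe; relative to each gene's mean their median was -0.90 to -0.60 on GFP positive replicates 1 and 2, -1.30 on the third, and 0.58, 0.91 and 1.29 on the GFP negative replicates. The log2 of their summed level lay between 11.14 and 11.78 in the GFP positive group and between 12.91 and 13.55 in the other. Ttk read 4.58, 4.61 and 3.53 in GFP positive cells, near background, so that the size of its difference is uncertain. Plk1, among the 18, read below log2 4 on every GFP positive array and passed the filter only through the GFP negative arrays. Of 17 measured DNA replication genes, 6 fell (median -1.06; -1.91 for Mcm5 and -1.74 for Cdt1), with summed levels of 13.67 to 13.86 and 14.26 to 14.49. Of 13 measured astrocyte markers, 6 rose (median 0.98; 1.53 for Slc6a11), with summed levels of 16.35 to 16.55 and 15.44 to 15.82. Gfap, among the 6, also stands on the neural stem cell list. Cldn10, also among the 6, read 7.23, 6.65 and 6.28 against 3.87, 2.81 and 4.44, the GFP negative values being near background, so that the size of its difference is uncertain. The summed level of the 25 sterol genes lay between 14.94 and 15.04 in GFP positive cells and between 15.29 and 15.52 in GFP negative cells, without overlap. Such a sum weighs the brightest genes most, here Hmgcs1 (means 13.87 and 14.20) and Insig1 (12.25 and 12.52), and neither of these passed the threshold. The part of cell division and of the astrocyte markers in the sterol result was not tested.

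**Figure D2:**
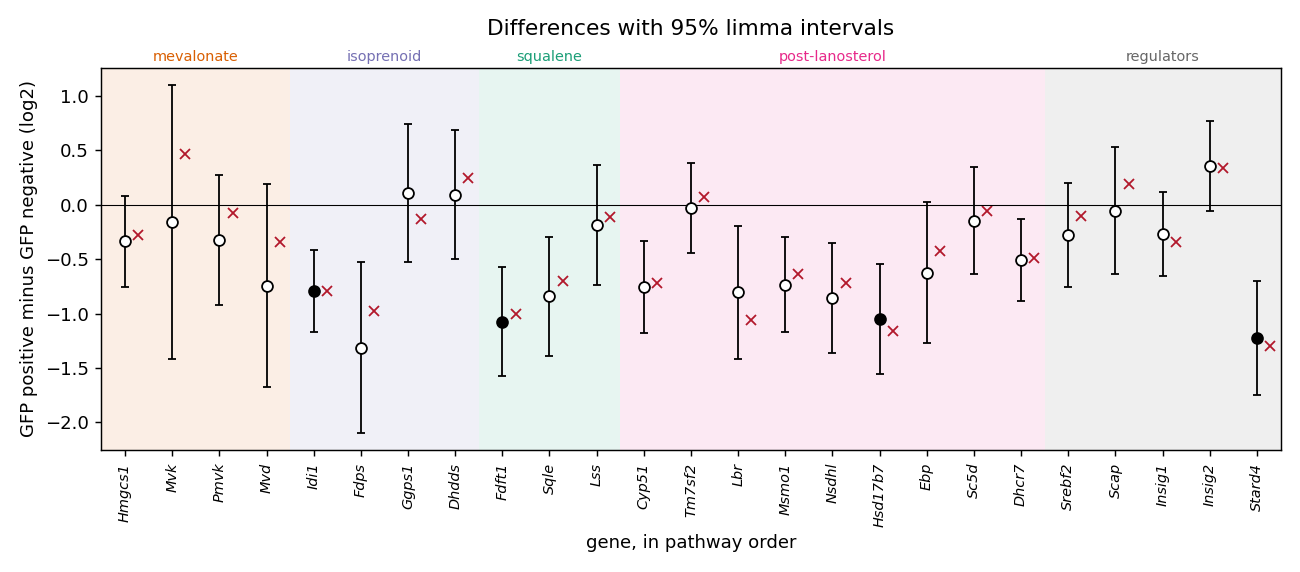
Difference between GFP positive and GFP negative means on the log2 scale for each measured gene (circles), with its 95% limma interval; filled circles are the 4 genes past the adjusted threshold of 0.05, and red crosses give the difference without GFP negative replicate 3. The intervals and crosses of Idi1, Fdft1, Hsd17b7 and Stard4 all lie below 0, while Mvk and Scap have a circle below 0 and a cross above it.

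Promoter sequence was at hand for 21 of the 25 genes, as RefSeq windows on assembly GRCm38.p6 that reach from 250 bases before an annotated start to 50 after it. The table holds no window of Fdps, Fdft1, Sqle or Stard4. Each window was searched on both strands for 4 patterns: TCACNCCAC, a form of the sterol regulatory element that the Srebf2 product binds, CCAAT, the core of the NF-Y site, GGGCGG, the core of the Sp1 site, and CACGTG, an E-box. NF-Y and Sp1 are known partners of the Srebf2 product. CCAAT stood in a window of 20 of the 21 genes, Scap being the exception, and in 43.7% of the 8621 tested genes with a window (37.4% of all 32851 windows of that length). GGGCGG stood in 19 of the 21, against 71.3% of tested genes (35.7% of all windows), and CACGTG in 6 of the 21, against 12.1% (7.15%). TCACNCCAC stood in 1 of the 21, Hmgcs1, against 1.37% of tested genes (1.24% of all windows). No matches of different patterns overlapped in these windows (0 pairs). A match is a stretch of letters and no measured site. Other forms of the sterol regulatory element were not searched for, so a window without TCACNCCAC may still hold one. Shown 5′ to 3′ on the gene's strand are the windows of Hmgcs1, which holds TCACNCCAC, and of Idi1 and Hsd17b7, which fell. That of Cyp51 was added after its values were seen, because all 3 of its probe sets separated the groups. Capitals mark CCAAT in either orientation (ATTGG when on the other strand) and, in Hmgcs1, also the match to TCACNCCAC.
Hmgcs1, chr13:119690101-119690400, plus strand: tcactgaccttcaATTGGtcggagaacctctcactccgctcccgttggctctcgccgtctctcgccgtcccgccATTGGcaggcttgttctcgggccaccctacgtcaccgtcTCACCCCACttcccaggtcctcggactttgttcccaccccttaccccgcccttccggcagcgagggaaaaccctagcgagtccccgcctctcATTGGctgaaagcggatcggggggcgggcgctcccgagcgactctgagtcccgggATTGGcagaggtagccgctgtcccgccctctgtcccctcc
Idi1, chr13:8885356-8885655, plus strand: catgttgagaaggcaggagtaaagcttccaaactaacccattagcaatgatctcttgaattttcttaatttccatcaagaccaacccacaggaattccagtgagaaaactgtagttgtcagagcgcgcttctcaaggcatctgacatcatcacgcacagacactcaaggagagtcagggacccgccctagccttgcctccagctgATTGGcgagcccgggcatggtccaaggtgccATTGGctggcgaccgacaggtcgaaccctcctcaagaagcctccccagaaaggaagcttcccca
Cyp51, chr5:4104648-4104947, minus strand: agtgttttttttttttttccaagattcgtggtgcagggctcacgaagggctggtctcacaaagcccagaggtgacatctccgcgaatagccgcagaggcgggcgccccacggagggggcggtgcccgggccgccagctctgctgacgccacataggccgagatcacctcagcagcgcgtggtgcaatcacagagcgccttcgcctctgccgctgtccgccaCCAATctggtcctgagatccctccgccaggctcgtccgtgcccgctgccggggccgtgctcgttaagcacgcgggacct
Hsd17b7, chr1:169969156-169969455, minus strand: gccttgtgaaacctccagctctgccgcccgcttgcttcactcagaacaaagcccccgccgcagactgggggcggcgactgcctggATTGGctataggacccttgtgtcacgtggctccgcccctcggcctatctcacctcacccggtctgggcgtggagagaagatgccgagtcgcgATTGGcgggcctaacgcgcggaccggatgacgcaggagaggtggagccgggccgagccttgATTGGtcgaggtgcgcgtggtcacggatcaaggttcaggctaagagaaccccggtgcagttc

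In Hmgcs1 the match to TCACNCCAC reads TCACCCCAC and begins 137 bases before the annotated start. CCAAT lies on the other strand on both sides of that match, at 237, 176 and 45 bases before the start and once after the start. Idi1 carries CCAAT on the other strand at 45 and 14 bases before its start. Hsd17b7 carries it on the other strand at 165, 73 and 12 bases before, and Cyp51 has it on the gene's strand at 29 bases before.

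None of the 4 measured mevalonate enzymes passed the test, although all 4 differences were negative (median -0.33, or -0.17 without GFP negative replicate 3). Hmgcs1, the cytosolic synthase of hydroxymethylglutaryl-CoA, measured 13.95, 13.85 and 13.80 in GFP positive cells and 13.98, 14.30 and 14.33 in GFP negative cells. The groups did not overlap, but GFP positive replicate 1 and GFP negative replicate 1 were close together, and the difference of -0.34 (SE 0.18, 95% interval -0.75 to 0.08) did not pass (limma adjusted p = 0.384). All 5 probe sets of Hmgcs1 gave negative differences, from -0.45 to -0.16, but only the one with the highest mean kept the groups apart.

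Mvd, the decarboxylase that yields isopentenyl diphosphate, had the largest difference of this step. Its values were 7.14, 6.72 and 6.30 in GFP positive cells against 6.76, 7.36 and 8.26, so that the groups overlapped and GFP negative replicate 3 stood highest. The difference was -0.74 (SE 0.40, limma adjusted p = 0.397), and -0.34 without that array. Its probe set carries a suffix for probes shared among transcripts, and the other one fell short of the filter. The 2 kinases between mevalonate and its diphosphate had smaller differences, and neither passed. Mvk, mevalonate kinase, had means of 6.57 ± 0.52 and 6.74 ± 1.09 (SD, n = 3), with 7.99 on GFP negative replicate 3 and at most 6.19 on the other GFP negative arrays. Its difference was -0.16 with that array and 0.47 without it. Pmvk, phosphomevalonate kinase, differed by -0.33, and by -0.07 without the same array.

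At the isoprenoid step 1 of the 4 measured enzymes fell, and the median difference was -0.35 (-0.46 without GFP negative replicate 3). Idi1, the isomerase that interconverts isopentenyl and dimethylallyl diphosphate, measured 9.84, 9.93 and 9.73 in GFP positive and 10.65, 10.60 and 10.63 in GFP negative cells. The GFP negative arrays lay close together, and every one lay above every GFP positive array. Idi1 fell by 0.79 on the log2 scale (1.73-fold; SE 0.16, 95% interval -1.17 to -0.41, limma adjusted p = 0.0408). Its other probe set differed by -0.81, but there the groups overlapped, with 9.20 on GFP negative replicate 3 and 9.51 on GFP positive replicate 2.

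Fdps, farnesyl diphosphate synthase, had the largest difference of all 25 genes without passing the test. Its values were 7.61, 7.77 and 7.21 in GFP positive cells against 8.75, 8.26 and 9.51 in GFP negative cells. The groups did not overlap, and GFP negative replicate 3 was the highest. The difference was -1.31 (2.48-fold; SE 0.33, 95% interval -2.09 to -0.53, limma adjusted p = 0.0784). Without that array the difference was smaller, -0.98, and passed (limma adjusted p = 0.0469).

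Past farnesyl diphosphate, the 2 branch enzymes measured gave differences near 0. Ggps1, which makes geranylgeranyl diphosphate for prenylation, measured 9.51, 9.73 and 10.11 in GFP positive and 10.04, 9.78 and 9.21 in GFP negative cells. Its groups overlapped widely, with a difference of 0.11 (SE 0.27, 95% interval -0.53 to 0.74), and of -0.13 without GFP negative replicate 3. The 4 probe sets of Ggps1 did not share a sign, from -0.30 to 0.28. Dhdds, a subunit of the enzyme that makes the dolichol chain, differed by 0.09 (SE 0.25, limma adjusted p = 0.905), or 0.24 without that array, and its 3 probe sets by 0.09 to 0.53, all positive. Whether these branch enzymes differ from Idi1 and Fdps in their response was not tested.

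All 3 enzymes of the squalene step had negative differences (median -0.84, or -0.70 without GFP negative replicate 3), and 1 fell. That was Fdft1, squalene synthase, which commits farnesyl diphosphate to sterols. It measured 9.51, 10.01 and 9.63 in GFP positive and 10.54, 10.90 and 10.95 in GFP negative cells, without overlap. Fdft1 fell by 1.08 (2.11-fold; SE 0.21, 95% interval -1.58 to -0.58, limma adjusted p = 0.0376). That probe set carries a suffix for probes that can cross-hybridise. The gene's other probe set above the filter, without the suffix, read 8.98, 8.99 and 8.62 against 9.84, 9.60 and 10.59 and differed by -1.15. It separated the groups as well, though in a fit without such suffixes it missed the threshold (limma adjusted p = 0.0748).

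Sqle, squalene epoxidase, is held to be a rate-limiting enzyme of the later pathway. It measured 8.61, 9.12 and 8.80 against 9.33, 9.76 and 9.96, without overlap. The difference was -0.84 (1.79-fold; SE 0.23) and missed the threshold (limma adjusted p = 0.102). Lss, lanosterol synthase, differed by -0.19 (SE 0.24), or -0.12 without GFP negative replicate 3, at the probe set with the highest mean, where the groups overlapped. Its other 2 probe sets gave -0.64 and -0.71, the first of them with groups that did not overlap (7.01, 7.07 and 6.92 against 7.37, 7.65 and 7.92).

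All 9 post-lanosterol enzymes were measured, and all 9 differences were negative, with a median of -0.73 (-0.64 without GFP negative replicate 3). For 6 of them, Cyp51, Lbr, Msmo1, Nsdhl, Hsd17b7 and Dhcr7, the groups did not overlap. Cyp51, the lanosterol demethylase, measured 10.35, 10.72 and 10.47 in GFP positive and 11.16, 11.32 and 11.34 in GFP negative cells. Its difference was -0.76 (1.69-fold; SE 0.18, limma adjusted p = 0.0640), and it passed without GFP negative replicate 3 (-0.72, limma adjusted p = 0.0455). The gene's other 2 probe sets differed by more, -1.38 and -1.30, and each kept the groups apart. With all its probe sets averaged Cyp51 passed.

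The next double bond is reduced by Tm7sf2 or by Lbr, which catalyse the same reaction. Lbr is also the lamin B receptor of the inner nuclear membrane. Tm7sf2 measured 8.55, 8.58 and 8.47 in GFP positive and 8.53, 8.40 and 8.77 in GFP negative cells, so that its groups overlapped at a difference of -0.03 (SE 0.18, 95% interval -0.44 to 0.38), which was 0.07 without GFP negative replicate 3. Lbr measured 9.07, 9.41 and 9.22 against 10.44, 10.15 and 9.54, and its groups did not overlap. Here GFP negative replicate 3 was the lowest of its group, so that the difference was -0.81 with it (SE 0.26, limma adjusted p = 0.148) and -1.06 without it (limma adjusted p = 0.0189). The difference between Tm7sf2 and Lbr was not tested.

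Msmo1, Nsdhl and Hsd17b7 remove the methyl groups at the fourth carbon of the sterol. Hsd17b7, the ketoreductase of that complex, measured 8.68, 8.60 and 8.49 in GFP positive and 9.47, 10.04 and 9.41 in GFP negative cells. The groups lay well apart, and the gene fell by 1.05 (2.07-fold; SE 0.22, 95% interval -1.56 to -0.54, limma adjusted p = 0.0433). The call rests on a probe set with a suffix for cross-hybridising probes. The other one above the filter, without the suffix, lay near background at 4.06, 3.99 and 3.94 against 4.65, 5.11 and 3.42 and differed by -0.40 with overlapping groups (limma adjusted p = 0.698 in a fit without such suffixes). Msmo1, the oxidase, had means of 9.80 ± 0.16 and 10.53 ± 0.17, a difference of -0.73 (limma adjusted p = 0.0766). Its second probe set differed by 0.00 (SE 0.22). Nsdhl, the decarboxylating dehydrogenase, had means of 7.73 ± 0.21 and 8.59 ± 0.29, a difference of -0.86 (limma adjusted p = 0.0759).

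The last 3 enzymes move, add and reduce double bonds of the ring. Ebp, the isomerase, had means of 7.67 ± 0.18 and 8.30 ± 0.51, a difference of -0.63 with overlapping groups (limma adjusted p = 0.293). Sc5d, the desaturase, differed by -0.15 (SE 0.21), by -0.055 without GFP negative replicate 3, and by -0.42 at its second probe set above the filter. Dhcr7, the closing reductase, read 10.20, 10.35 and 10.31 against 10.73, 10.82 and 10.84. The spread within its groups was small (SD 0.07 and 0.06, n = 3 each), yet its difference of -0.51 (SE 0.16) did not pass (limma adjusted p = 0.139). It passed when genes were not filtered on low values (limma adjusted p = 0.0358).

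**Figure D3:**
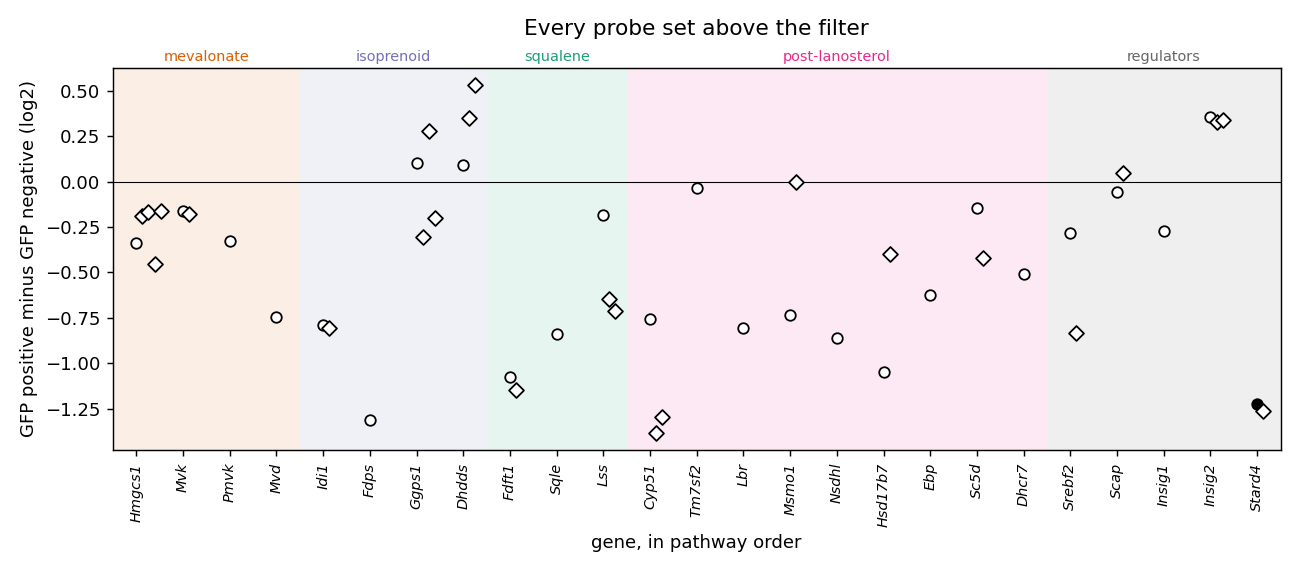
Difference between GFP positive and GFP negative means on the log2 scale for each of the 49 probe sets above the filter, with circles for the probe set with the highest mean of its gene and diamonds for the others; a filled mark passed an adjusted threshold of 0.05 in a fit of each probe set on its own. The marks of Stard4, Fdft1 and Cyp51 lie together well below 0, while those of Ggps1 lie on both sides of it.

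Of the 5 measured regulators 1, a sterol carrier, fell, and the median difference was -0.27 (-0.11 without GFP negative replicate 3). Stard4, a soluble carrier that moves cholesterol between membranes, measured 7.72, 7.72 and 7.17 in GFP positive and 8.67, 9.00 and 8.62 in GFP negative cells. All GFP negative arrays lay well above all GFP positive ones. Stard4 fell by 1.22 (2.33-fold; SE 0.22, 95% interval -1.75 to -0.70) and had the lowest adjusted p of the 25 genes (limma adjusted p = 0.0308). Its other 2 probe sets differed by -1.26 and -1.18 and separated the groups too, the latter below the filter, near background.

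Srebf2, whose product is the transcription factor of the pathway, measured 8.92, 8.82 and 8.87 against 8.95, 9.01 and 9.50. The groups touched without overlapping, 8.92 and 8.95 being the nearest values, and the difference was -0.28 (SE 0.20, limma adjusted p = 0.551). Without GFP negative replicate 3, the highest array, it was -0.11. The second probe set of Srebf2 showed a larger gap, at 7.61, 8.12 and 7.93 against 8.54, 8.87 and 8.75, a difference of -0.83 (SE 0.21). In a fit of each probe set on its own it did not pass (limma adjusted p = 0.0967). Scap, the escort of that factor, differed by -0.06 (SE 0.25, 95% interval -0.64 to 0.53), and by 0.19 without GFP negative replicate 3.

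The 2 Insig genes had differences of opposite sign, and neither passed. Insig1, which the Srebf2 product itself induces, measured 12.30, 12.25 and 12.20 in GFP positive and 12.57, 12.61 and 12.38 in GFP negative cells, a difference of -0.27 (SE 0.16, limma adjusted p = 0.458). Insig2 measured 9.01, 8.85 and 8.63 against 8.43, 8.56 and 8.44, a difference of 0.36 (SE 0.18, 95% interval -0.06 to 0.77, limma adjusted p = 0.353). Neither gene's groups overlapped. All 3 probe sets of Insig2 gave 0.33 to 0.36, the other 2 with overlapping groups. The difference between the 2 genes was not tested.

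The 4 calls depended on the arrays used. Idi1, Hsd17b7 and Stard4 each passed in 1 of the 6 fits with 1 array left out, the one without GFP negative replicate 3, and Fdft1 passed in that fit and without GFP negative replicate 1. None of the 25 passed when any GFP positive array or GFP negative replicate 2 was left out, where 9, 11, 11 and 11 of them were lower at an unadjusted limma p under 0.05 (6.67%, 5.85%, 5.02% and 7.01% of all genes tested). After adjustment those fits called 0.0%, 0.627%, 0.0% and 0.342% of all genes tested lower, and the fit without GFP negative replicate 1 called 1.86%. Without GFP negative replicate 3, 7 of the 25 fell, Fdps, Cyp51 and Lbr joining the 4, and 4.21% of all genes tested were called lower. Over the arrays left out, the differences ran from -0.84 to -0.74 for Idi1, -1.22 to -0.97 for Fdft1, -1.16 to -0.85 for Hsd17b7 and -1.32 to -1.04 for Stard4, with limma adjusted p up to 0.209, 0.172, 0.187 and 0.126. With the 3′ to 5′ control ratio as a covariate 0 of the 25 passed and 10 were lower at an unadjusted limma p under 0.05, with a median difference of -0.43. That fit called 0.0% of all genes tested lower after adjustment and 5.35% at the unadjusted level. When each probe set was fitted on its own, a setting added after the data were seen, 39 of the 49 probe sets above the filter were negative and 1, of Stard4, passed, while 1.07% of the 18742 probe sets tested were called lower.

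**Figure D4:**
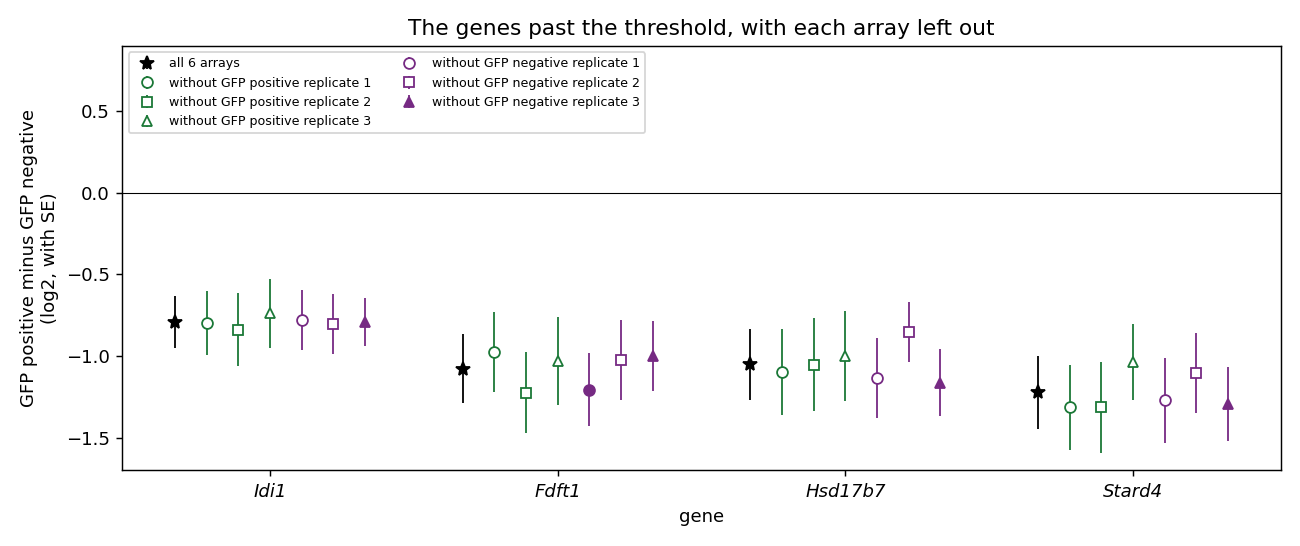
Difference with its SE on the log2 scale for the 4 genes that passed with all 6 arrays (stars) and with each array left out in turn (green for a GFP positive and purple for a GFP negative array left out); filled marks passed the adjusted threshold of 0.05 and open marks did not. The differences stay between -1.32 and -0.74, and apart from the stars the filled marks are those without GFP negative replicate 3 and, for Fdft1, without GFP negative replicate 1.

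Read across arrays, the steps did not separate equally. Relative to each gene's mean, the median of the post-lanosterol enzymes was -0.26, -0.23 and -0.42 in GFP positive cells against 0.19, 0.42 and 0.30 in GFP negative cells, in replicate order. The squalene step gave -0.65, -0.14 and -0.47 against 0.07, 0.49 and 0.69. In both steps, and at the isoprenoid step (-0.30, -0.21 and -0.28 against 0.36, 0.07 and 0.33), the groups did not overlap. The regulators gave -0.09, -0.14 and -0.14 against -0.06, 0.00 and 0.47, with the groups almost touching. The mevalonate step overlapped, with 0.02, -0.21 and -0.45 against -0.27, 0.15 and 0.92, the last on GFP negative replicate 3. These medians rest on 3 to 9 genes each, and differences between steps were not tested.

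**Figure D5:**
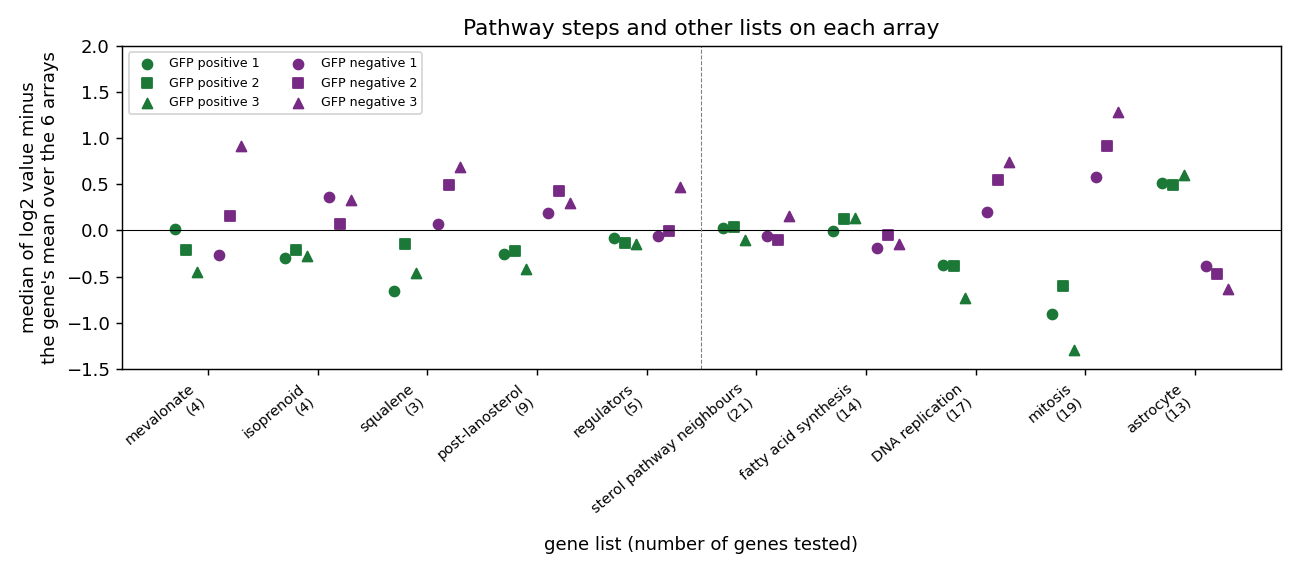
Median over the genes of each list of the log2 value minus the gene's mean over the 6 arrays (vertical axis), for the 5 groups of sterol genes left of the dashed line and 5 other lists right of it; green marks are GFP positive and purple marks GFP negative arrays, with 1 shape per replicate. The squalene and post-lanosterol steps separate the groups, the sterol pathway neighbours and the mevalonate step do not, and the mitosis list separates them by more, from -1.30 to 1.29.

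The differences of other genes around the pathway lay on both sides of 0. Of a list of 34 neighbours (prenyl transferases, sterol transport, oxysterol enzymes, proteases and ubiquitin ligases of sterol sensing) 25 had a probe set and 21 were tested. Their median difference was -0.03 (0.07 without GFP negative replicate 3), 11 were negative and 10 positive, and limma called 0 of the 21 in either direction. At an unadjusted limma p under 0.05, 1 was lower and 1 higher, both named after their values were seen. Tmem97, a sterol-responsive membrane protein, differed by -1.64 (6.74, 6.63 and 5.51 against 7.30, 7.87 and 8.63; limma adjusted p = 0.0885). Cyp46a1, the enzyme that turns cholesterol into the oxysterol of the brain, differed by 1.28 (limma adjusted p = 0.0974). It read 6.20, 6.35 and 6.25 against 4.49, 4.65 and 5.83. GFP negative replicates 1 and 2 were near background, so that the size of its difference is uncertain. Tmem97 and Cyp46a1 both kept their groups apart. Npc2, the lysosomal cholesterol carrier, differed by 0.05, and Acat1, the mitochondrial thiolase, by -0.16.

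Fatty acid synthesis genes, which the related factor encoded by Srebf1 drives, gave a median of 0.17 over 14 measured genes, 5 of them negative. Limma called 0 of the 14. With no adjustment (p under 0.05), Fads2 and Thrsp were higher (0.51 and 0.65) and Elovl6 was lower (-0.78). Scd2, a desaturase, differed by 0.36 (SE 0.18), and Fasn, the synthase of the study's title, by -0.18 (SE 0.28).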

How the data were processed

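Biotin-labelled total RNA was read on Affymetrix mouse arrays. Per the submitters' processing notes, GCRMA produced the deposited log2 values; its version is not stated there. This method estimates background from probe sequence and gives all arrays a like distribution, so a shift common to all genes cannot be seen. The deposited arrays were still not equal. Their medians ran from 3.55 to 3.66 over all probe sets and from 8.85 to 9.09 over the genes tested. No further normalization was applied.

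Of 45101 probe sets, 34945 named exactly 1 gene in the platform annotation. Genes with at least 3 of 6 arrays at log2 4 or more were tested (10531 of 18193), with limma 3.58.1 in R 4.3.3, 2-sided, without covariates, Benjamini-Hochberg over all genes tested. The fit was tested on simulated data, where it recovered 0% of differences of log2 0.5, 20% of log2 1, 68% of log2 2 and 94% of log2 3. It made 2 false calls there. A gene that did not pass may therefore still differ by amounts like those seen here. With 3 arrays per group, their number limits the precision, and p-values measure only the spread between these arrays.

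The members, lists and tests were chosen with earlier results of these data known. Every member is named. Values on every array are given for members past the threshold, the largest difference per step and sign, the Tm7sf2 and Lbr and the Insig pairs, Srebf2, and (added later) Hmgcs1, Cyp51, Sqle and Dhcr7. From other lists the 2 members with the highest means are named where none passed; elsewhere those with the largest differences past the threshold. Sox2, Nes, Dcx, Cspg4, Pdgfra, Tmem97, Cyp46a1, Fads2, Elovl6 and Fasn were named outside this rule, after their values were seen. So were Neurod1, Map2, Elavl3 and Plk1. A promoter was to be shown where it held TCACNCCAC; Idi1, Hsd17b7 and Cyp51 were added later. Alternatives were no filter or log2 6, quantile normalization, a common median, other probe set choices, a robust trended variance, array weights, a block on replicate number, the 3′ to 5′ covariate and each array left out.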

Additional observations from a re-analysis of the deposited data

How the results depend on the processing

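The sign and the side of the threshold were kept in 337 comparisons of a gene's difference with its value under an alternative. In 35 a call was lost, in 12 one was gained and in 15 the sign turned, always of a gene that had not passed. The number of the 25 genes past the threshold was 4 and became 2 without a filter (Idi1 and Dhcr7), 2 with the mean of all probe sets (Cyp51 and Stard4), 2 without probe sets of suffix _s_at or _x_at (Idi1 and Stard4), 7 with a common median, 7 with array weights, 0 with the 3′ to 5′ covariate and 1 with each probe set on its own; with arrays left out it ran from 0 to 7. The cause of these changes was not tested. Over all genes, 470 passed with all arrays, 294 without a filter, 1654 with array weights, 9 with the covariate, and 1 to 1244 with an array left out. Without a filter 101 of 18193 genes were called lower. With the mean of all probe sets 189 of 9958 were, and without those suffixes 203 of 10194. With a common median, array weights and the covariate, 278, 603 and 0 of 10531 were called lower, against 222 in the main fit. The median difference of the 25 lay between -0.54 and -0.34 when arrays were left out.

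Deviations of same-numbered arrays from their group means correlated at -0.25, 0.05 and -0.50, and not every array correlated best with its own number. With 3 arrays per group, these correlations cannot tell whether the replicate numbers pair the arrays. With the replicate number as a block, 0 of the 25 genes and 27 of all genes passed, and 22 of the 25 stayed negative.

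Signs turned for Ggps1 with the mean of all probe sets (-0.0292), and with array weights for Mvk (0.58), Ggps1 (-0.0818), Tm7sf2 (0.0856) and Scap (0.24). With the covariate the sign of Dhdds turned (-0.18). Over the arrays left out Mvk ran from -0.52 to 0.47, Ggps1 from -0.13 to 0.29, Dhdds from -0.14 to 0.24, Tm7sf2 from -0.12 to 0.0685 and Scap from -0.23 to 0.19.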
